A study of Mus musculus with 6 samples.

Results

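The genes described here encode myostatin, the activins, their antagonists and their receptors, measured in the tibialis anterior (TA) muscle of mice. They are the 10 rows of the deposited expression table whose symbol is *Mstn*, *Gdf11*, *Gdf5*, *Inhba*, *Inhbb*, *Fst*, *Fstl3*, *Acvr2a*, *Acvr2b* or *Acvr1b*, of 41709 genes in all. With LrpprcP27A compared to LrpprcWT, the mRNA for myostatin was higher, the mRNA for its antagonist follistatin was lower, and the other 5 genes with enough signal for the test did not pass it. The remaining 3, the ligand genes *Gdf5*, *Inhba* and *Inhbb*, had a mean under 1 TPM (transcripts scaled to a fixed total per library) and were not tested in the main comparison.

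The 6 libraries came from TA muscles of male C57BL/6J mice that were electroporated with plasmids for mouse Lrpprc. In 3 muscles the plasmid carried the wild-type sequence (LrpprcWT), and in the other 3 it carried LrpprcP27A, in which proline 27 is replaced by alanine so that this residue cannot be dihydroxylated. The pCMV6 plasmids drive a Flag-tagged protein from a CMV promoter, and the 2 plasmids were placed in the TA muscles of opposite legs. Both groups therefore received extra Lrpprc on top of the gene of the mouse, and no library of a GFP or mock electroporated muscle was analysed here. The study used young and old mice, and the paper reports the RNA sequencing before it turns to the old ones. The sources do not say outright which of these gave the RNA. Plasmid reaches only some myofibres, the share is not known, and every value is from whole muscle, so fewer cells of a type and less RNA per cell cannot be told apart.

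Values are TPM, a unit that divides the reads of a gene by transcript length and then scales every library to a total of 1000000, so that the number of reads is unknown, and between 17774 and 19053 genes were above 0. *Lrpprc* itself was at 35.1, 37.0 and 75.2 TPM with LrpprcWT and at 26.9, 29.7 and 26.0 TPM with LrpprcP27A, in the order of replicates 1, 2 and 3 that is kept throughout. The groups did not overlap, the log2 fold change was -0.72 (SE 0.26), and the gene was not called without the replicate block (limma adjusted p = 0.0652) but was with it (0.00243), where the block pairs libraries of the same number. After median-of-ratios scaling the difference was -0.36, with a limma adjusted p of 0.331 without the block and 0.245 with it. These reads come from the plasmid and from the gene of the mouse together. Replicate 3 with LrpprcWT had the highest *Lrpprc* level and the lowest share of mitochondrial transcripts (36.0%, against 40.8% to 46.1% in the other libraries). The median of all genes tested was lower with LrpprcP27A by 0.32 on the log2 scale, and it was at -0.0047 after median-of-ratios scaling, so each difference below is to be read against that shift.

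Myostatin and GDF11 are closely related ligands of the TGF-β family, and activins are dimers of the inhibin β subunits encoded by *Inhba* and *Inhbb*. They bind the type II receptors ActRIIA and ActRIIB (*Acvr2a* and *Acvr2b*), which recruit a type I receptor such as ALK4 (*Acvr1b*) that phosphorylates Smad2 and Smad3. Follistatin (*Fst*) and follistatin-like 3 (*Fstl3*) are secreted proteins that wrap around these ligands and block receptor binding. In skeletal muscle, myostatin is made by myofibres and limits muscle mass, and follistatin has the opposite effect. *Gdf5* encodes a ligand of the BMP branch, which signals through Smad1, Smad5 and Smad8 and opposes loss of muscle mass after denervation.

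*Mstn* and *Fst* were the genes that passed the test, and their promoters are shown because they differ in the motif bound by myogenic bHLH factors. *Mstn* spans chr1:53100799-53107240 on the plus strand of GRCm39, with no other annotated gene over it. *Fst* spans chr13:114588731-114595521 on the minus strand and shares its span with 2 non-coding RNA genes of the opposite strand. The 250 bases before each start site (GENCODE canonical transcript) lie at chr1:53100549-53100798 and chr13:114595522-114595771, and they are given 5′ to 3′ on the strand of the gene, with each E-box (CANNTG, which reads the same on both strands) in capitals.
Mstn: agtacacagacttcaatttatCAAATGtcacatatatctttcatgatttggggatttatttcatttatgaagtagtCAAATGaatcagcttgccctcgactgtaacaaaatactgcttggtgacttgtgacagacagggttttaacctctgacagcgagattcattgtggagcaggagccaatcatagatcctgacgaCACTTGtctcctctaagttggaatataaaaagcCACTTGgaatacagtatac
Fst: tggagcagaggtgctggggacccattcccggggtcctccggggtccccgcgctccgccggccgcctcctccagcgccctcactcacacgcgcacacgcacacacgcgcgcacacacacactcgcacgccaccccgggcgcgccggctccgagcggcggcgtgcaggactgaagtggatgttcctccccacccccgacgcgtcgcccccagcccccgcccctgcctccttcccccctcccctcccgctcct
The *Mstn* promoter held 4 E-boxes, at -229 to -224, -174 to -169, -52 to -47 and -19 to -14 from the start site, and the *Fst* promoter held 0. Among the 250-base promoters of 21751 protein-coding genes, 64.8% held at least 1 E-box and 3.01% held 4 or more. The *Mstn* promoter also held 2 copies of the Smad box (GTCTG or its complement CAGAC, present in 41.3% of promoters), at -244 to -240 and at -120 to -116, and the *Fst* promoter held 0. The FoxO core motif GTAAACA or its complement, in 2.72% of promoters, was in neither. Base composition differed as well, with 38.4% G or C in the *Mstn* promoter and 75.6% in that of *Fst*. Of the other genes, *Fstl3* had 3 E-boxes in this window and *Gdf5*, *Inhba* and *Acvr1b* had 1 each. These are matches of letters, and binding was not measured.

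*Mstn* was at 5.57, 10.3 and 9.10 TPM in the LrpprcWT muscles and at 12.5, 20.7 and 24.2 TPM in the LrpprcP27A muscles. All 3 LrpprcP27A values lay above all 3 LrpprcWT values, and the LrpprcP27A muscle was the higher one in each of the 3 pairs with the same library number. The means were 8.34 ± 2.47 (SD, n = 3) and 19.1 ± 6.04 TPM (SD, n = 3), a 2.29-fold increase. On the log2(TPM + 1) scale the difference was 1.10 (SE 0.27, 95% interval 0.49 to 1.71), with an adjusted p of 0.0279 in limma over all 11611 genes with a mean of at least 1 TPM. Of all genes tested, 1.34% were called higher with LrpprcP27A on the deposited scale. After median-of-ratios scaling, which calls 5.25% of all genes higher, the difference was 1.44 (limma adjusted p = 0.0379). The call was lost when 1 library was left out in 4 of 6 cases, with limma adjusted p = 0.0831 without LrpprcWT replicate 1, 0.109 without LrpprcWT replicate 3, 0.0766 without LrpprcP27A replicate 2 and 0.0779 without LrpprcP27A replicate 3. The log2 difference itself stayed between 0.86 and 1.36 in these 6 fits.

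*Gdf11*, the closest relative of *Mstn*, did not pass the test. It was at 6.70, 6.36 and 4.45 TPM with LrpprcWT and at 4.57, 5.75 and 4.53 TPM with LrpprcP27A. The groups overlapped, and the difference of -0.19 on the log2(TPM + 1) scale had an interval of -0.58 to 0.20 (limma adjusted p = 0.384). Its sign turned to 0.12 after median-of-ratios scaling and to 0.20 after quantile normalization, without a call in either. The gene shares its span with *Sarnp* on the opposite strand, and the TruSeq v2 kit does not mark strand.

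The 3 ligand genes under 1 TPM were lower with LrpprcP27A in every pair. *Gdf5* was at 0.618, 0.727 and 0.447 TPM with LrpprcWT and at 0.0865, 0.0439 and 0.241 TPM with LrpprcP27A, so that the groups did not overlap and the means differed 4.82-fold. *Inhba*, for the βA subunit, was at 0.664, 0.466 and 0.410 TPM against 0.330, 0.255 and 0.334 TPM, again without overlap. *Inhbb*, for the βB subunit, was at 1.13, 0.594 and 0.987 TPM against 0.401, 0.491 and 0.526 TPM, also without overlap. *Gdf5* shares its span with the protein-coding gene *Gm15557*, and *Inhba* and *Inhbb* with non-coding RNA genes, all on the opposite strand. An exact permutation test on 3 against 3 muscles cannot go below p = 0.1, the value that each of the 3 genes had. Among genes with a mean under 1 TPM that were above 0 in every library, 33.6% had lower LrpprcP27A values without overlap, and such a pattern is thus common at these levels. In a limma fit without the filter on low values the adjusted p was 0.0618 for *Gdf5*, 0.124 for *Inhba* and 0.110 for *Inhbb*. With the replicate block added to that fit it was 0.0430 for *Gdf5*, which passed as did 15.0% of all genes in the same direction, 0.0962 for *Inhba* and 0.0947 for *Inhbb*.

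**Figure D1:**
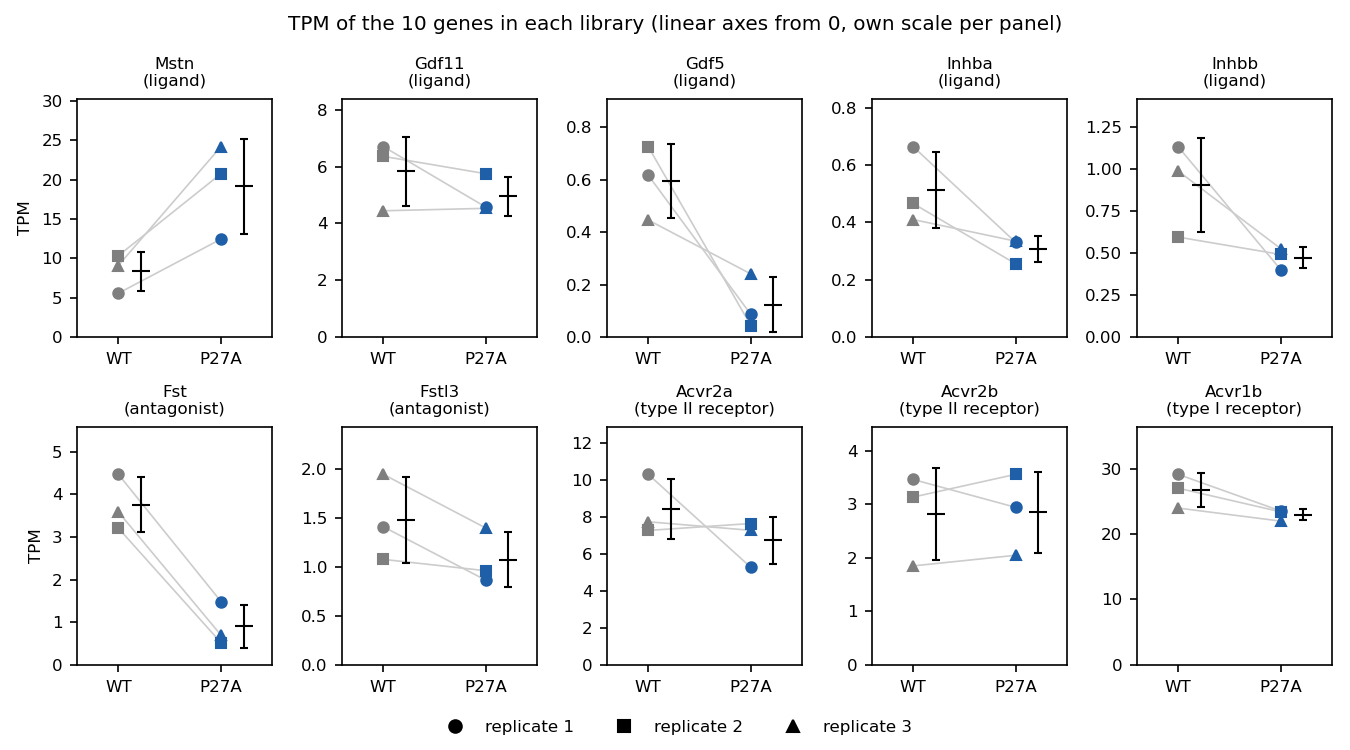
TPM of each of the 10 genes (vertical axes, linear from 0 and scaled per gene) in the 3 LrpprcWT (WT, grey) and 3 LrpprcP27A (P27A, blue) libraries. Symbols mark the replicate, grey lines join libraries with the same number, and the cross and bar are the mean ± SD. *Mstn* rises from 8.34 to 19.1 TPM and *Fst* falls from 3.76 to 0.903 TPM without overlap. *Acvr1b* (26.7 to 23.0 TPM), *Gdf5*, *Inhba* and *Inhbb* also fall without overlap, and the other panels overlap.

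*Fst* showed the lowest adjusted p of the 7 genes tested. Its values were 4.47, 3.21 and 3.59 TPM with LrpprcWT and 1.49, 0.522 and 0.698 TPM with LrpprcP27A. The highest LrpprcP27A value was below the lowest LrpprcWT value, and the means of 3.76 ± 0.648 (SD, n = 3) and 0.903 ± 0.514 TPM (SD, n = 3) differed 4.16-fold. The log2(TPM + 1) difference was -1.35 (SE 0.21, 95% interval -1.82 to -0.88, limma adjusted p = 0.0124), which understates the fold of a gene at this level, and with a pseudocount of 0.1 it was -2.05. On the deposited scale 23.3% of all genes tested were called lower, and 6.03% were after median-of-ratios scaling. On the latter scale the *Fst* difference was -1.11 (limma adjusted p = 0.0277), beside a median of -0.0047 for all genes on that scale. The call was lost without LrpprcWT replicate 3 (-1.37, limma adjusted p = 0.0887) and held when any 1 of the other 5 libraries was left out.

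*Fstl3*, the other follistatin gene, was at 1.41, 1.08 and 1.94 TPM with LrpprcWT and at 0.862, 0.959 and 1.39 TPM with LrpprcP27A. The value was lower in each pair, but the groups overlapped. The log2(TPM + 1) difference was -0.25 (95% interval -0.65 to 0.15, limma adjusted p = 0.270), and -0.04 after median-of-ratios scaling. *Fstl3* shares its span with *Prss57* on the opposite strand.

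Alongside the lower *Fst* values, summed markers of fibroblasts, macrophages and satellite cells were lower without overlap, and the other marker sums overlapped. Of single genes tested, 47.6% were also lower without overlap. Beside the counts below, 23.3% of all genes tested were called lower as deposited and 6.03% after median-of-ratios scaling. The summed level of 7 fibroblast and fibro-adipogenic progenitor markers (*Pdgfra*, *Col1a1*, *Col1a2*, *Col3a1*, *Lum*, *Dpt* and *Ly6a*) was 1605, 966 and 1498 TPM with LrpprcWT and 554, 255 and 323 TPM with LrpprcP27A, and 6 of the 7 were called lower. All 7 macrophage markers were called lower (269 to 524 TPM summed with LrpprcWT, 91.4 to 178 TPM with LrpprcP27A), and none of these 14 genes was at 0 in any library. Of 5 satellite cell markers 4 were tested and 3, namely *Pax7*, *Myf5* and *Vcam1*, were called lower (sums of 16.7 to 20.8 against 12.8 to 13.4 TPM). After median-of-ratios scaling the markers called lower were 5 of 7 for fibroblasts, 3 of 7 for macrophages and 2 of 4 for satellite cells. The part of these cells in the *Fst* difference was not tested. The summed endothelial markers (145 to 262 against 106 to 146 TPM, 2 of 5 lower) overlapped between the groups. The same held for tenocyte markers (93.5 to 166 against 41.9 to 117 TPM, 1 of 4 tested lower), mural cell markers (253 to 373 against 198 to 280 TPM, 1 of 5 lower), Schwann cell markers (19.4 to 38.8 against 17.5 to 36.3 TPM, 0 of 3 tested) and adipocyte markers (1.69 to 4.20 against 1.81 to 5.62 TPM, 0 of 2 tested, with *Lep* at 0 in at least 1 library). The 8 fast myofibre markers, led by *Acta1*, summed to 134598 to 148446 TPM with LrpprcWT and to 123627 to 139590 TPM with LrpprcP27A, which overlapped, and 1 of them, *Mylpf*, was called lower. Markers of fast muscle were abundant in all 6 libraries.

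**Figure D2:**
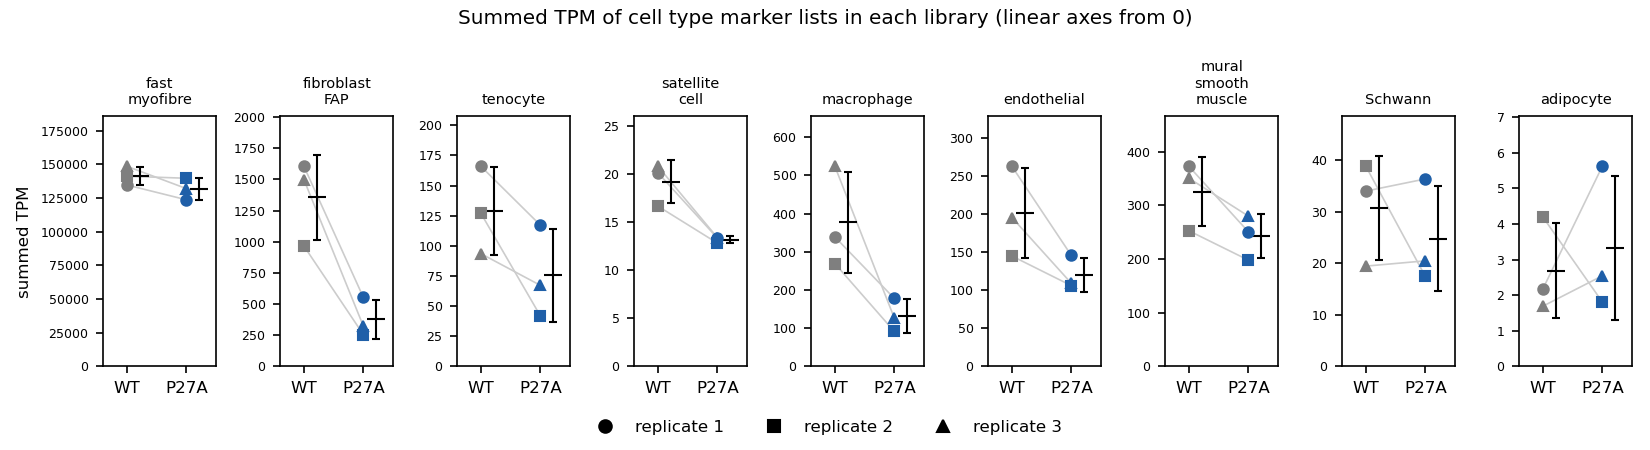
Summed TPM of 9 lists of cell type markers (vertical axes, linear from 0 and scaled per list) in the LrpprcWT (WT, grey) and LrpprcP27A (P27A, blue) libraries, with the mean ± SD beside the points. The fibroblast (966 to 1605 against 255 to 554), macrophage and satellite cell sums fall without overlap, and the fast myofibre sum overlaps.

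None of the 3 receptor genes passed the test. *Acvr1b*, the type I receptor gene with the highest level of the 10 genes in both groups, was at 29.12, 27.01 and 23.97 TPM with LrpprcWT and at 23.5, 23.4 and 22.0 TPM with LrpprcP27A. The groups did not overlap, with means of 26.7 ± 2.59 (SD, n = 3) and 23.0 ± 0.857 TPM (SD, n = 3). A decrease without overlap was nevertheless the pattern of 47.6% of all genes tested, the difference of -0.21 (95% interval -0.47 to 0.06) did not pass the test (limma adjusted p = 0.183), and it turned to 0.15 after median-of-ratios scaling. Increases without overlap, as for *Mstn*, were found in 3.51%.

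*Acvr2a* was at 10.3, 7.26 and 7.72 TPM with LrpprcWT and at 5.26, 7.63 and 7.26 TPM with LrpprcP27A. The highest and the lowest value were those of replicate 1 of either group, and the other 4 libraries lay between 7.26 and 7.72 TPM. The difference was -0.29 on the log2(TPM + 1) scale (95% interval -0.70 to 0.12, limma adjusted p = 0.219) and 0.04 after median-of-ratios scaling. *Acvr2b* was at 3.46, 3.13 and 1.85 TPM with LrpprcWT and at 2.94, 3.56 and 2.05 TPM with LrpprcP27A. Replicate 3 was the lowest library in both groups, and the difference was 0.02 (95% interval -0.47 to 0.51, limma adjusted p = 0.943). *Acvr2a* overlaps *Orc4* and *Acvr2b* overlaps non-coding RNA genes, all on the opposite strand. *Acvr1b* overlaps non-coding RNA genes of both strands. The intervals of the 3 receptors leave room for changes in either direction on this scale.

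**Figure D3:**
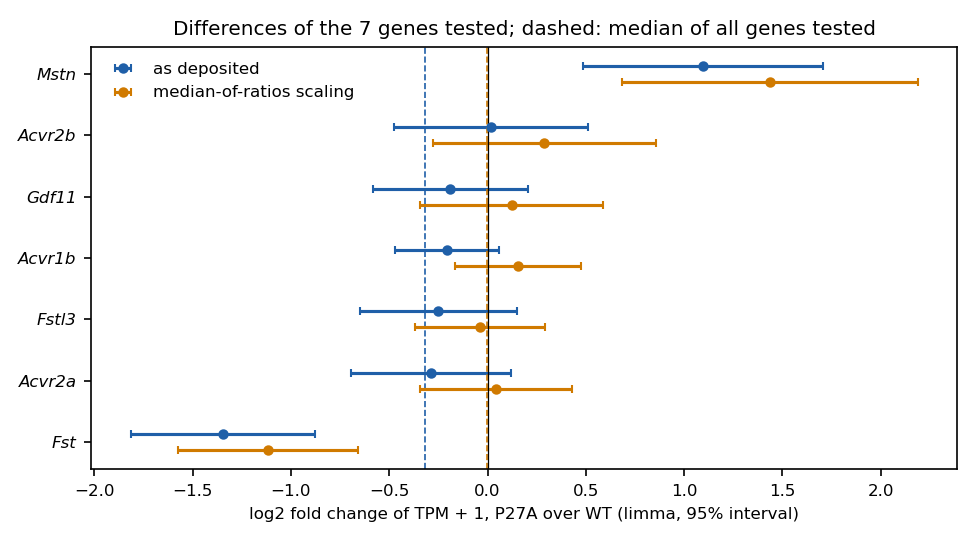
Log2 fold change of TPM + 1, LrpprcP27A (P27A) over LrpprcWT (WT), with 95% intervals from limma, for the 7 genes tested, as deposited (blue) and after median-of-ratios scaling (orange). Dashed lines mark the median of all genes tested (-0.32 and -0.0047). *Mstn* lies above 0 and *Fst* below 0 on both scales, and the intervals of the other 5 include 0 on both.

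Of the 7 genes tested, 1 was thus called lower, 1 higher and 5 neither. Their median log2 difference was -0.21, beside -0.32 for all genes tested. In all, the groups did not overlap for 6 of the 10 genes (5 lower and 1 higher) and overlapped for 4, where 47.6% of all genes tested and 33.6% of those under 1 TPM were lower without overlap. The order of the levels changed where *Mstn* and *Fst* moved. With LrpprcWT, *Acvr1b* was highest and did not overlap with the next gene, and from *Acvr2a* (8.42 TPM) through *Mstn* (8.34), *Gdf11* (5.84), *Fst* (3.76), *Acvr2b* (2.81), *Fstl3* (1.47), *Inhbb* (0.905) and *Gdf5* (0.597) to *Inhba* (0.513) each gene overlapped with its neighbour in the order. With LrpprcP27A, *Mstn* rose to the second place (19.1 TPM), overlapping with *Acvr1b* (23.0 TPM) and above every value of *Acvr2a* (6.72 TPM). *Fst* fell from the fifth to the seventh place, below *Acvr2b* (2.85 TPM) and overlapping with *Fstl3* (1.07 TPM) and *Inhbb* (0.473 TPM). *Gdf5* was the lowest of the 10 (0.124 TPM), below every value of *Inhba* (0.306 TPM).

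Ratios of 2 genes within a library do not depend on how the library is scaled. *Fst* over *Mstn*, antagonist against ligand, was 0.802, 0.310 and 0.395 with LrpprcWT and 0.119, 0.0252 and 0.0289 with LrpprcP27A. The groups did not overlap, and the mean log2 ratio went from -1.12 ± 0.712 to -4.50 ± 1.24 (SD, n = 3 each), a difference of -3.38 or 10.4-fold. *Fst* over *Fstl3* was 3.18, 2.99 and 1.85 against 1.73, 0.544 and 0.501, so that *Fst* went from the more abundant of the 2 follistatin mRNAs in every LrpprcWT muscle to the less abundant in 2 of 3 LrpprcP27A muscles, a log2 difference of -1.74. *Gdf11* over *Mstn* was 1.20, 0.615 and 0.489 against 0.367, 0.277 and 0.187, also without overlap, and differed by -1.42. Each of these 3 ratios had the smallest p that the exact permutation test allows (two-sided, p = 0.1, adjusted p = 0.167 over 5 ratios), was lower in 3 of 3 pairs and kept its direction when any 1 library was left out. Since each holds *Mstn* or *Fst*, they restate the differences of those 2 genes and add no separate evidence. The share of all gene pairs without overlap was not computed. *Fst* was at only 0.522 and 0.698 TPM in LrpprcP27A replicates 2 and 3, so the 10.4-fold value rests on low levels.

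The other 2 ratios, of the type II receptors and of the activin β subunits, overlapped between the groups. *Acvr2b* over *Acvr2a* was 0.336, 0.431 and 0.239 with LrpprcWT and 0.559, 0.466 and 0.282 with LrpprcP27A, a log2 difference of 0.36 (exact permutation test, two-sided, p = 0.4, adjusted p = 0.5), and it was higher with LrpprcP27A in 3 of 3 pairs. *Inhbb* over *Inhba* was 1.70, 1.28 and 2.41 against 1.22, 1.92 and 1.57 (log2 difference -0.17, exact permutation test, p = 0.6, adjusted p = 0.6). The βB transcript was above the βA transcript in all 6 libraries.

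**Figure D4:**
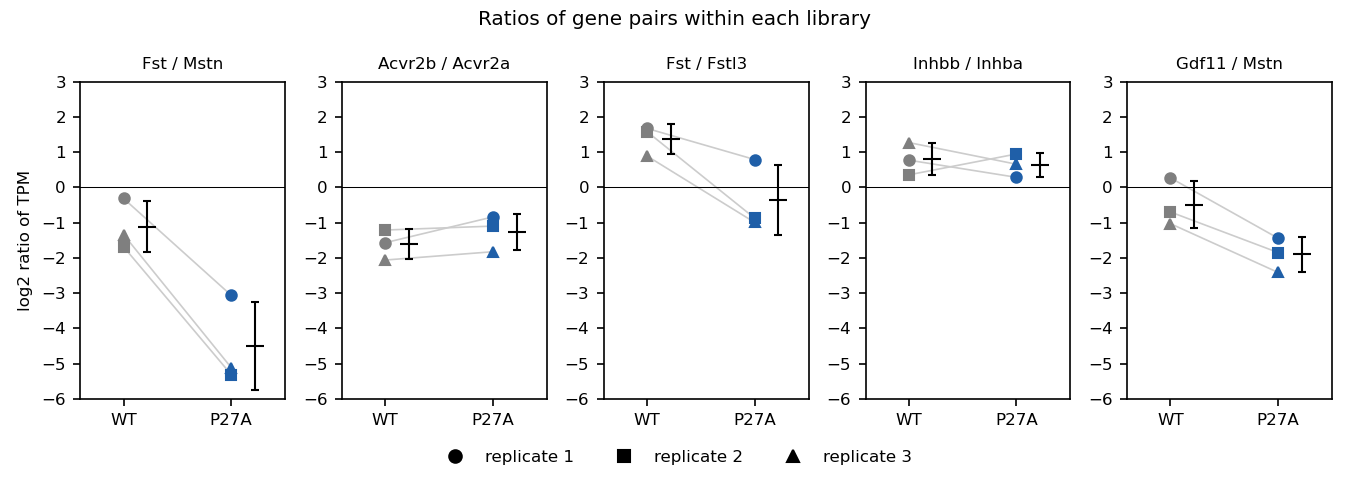
Log2 ratio of the TPM of 2 genes within each library (vertical axis) in the LrpprcWT (WT, grey) and LrpprcP27A (P27A, blue) muscles, with the mean ± SD beside the points and lines joining libraries of the same number. *Fst* over *Mstn* falls from -1.12 to -4.50, *Fst* over *Fstl3* and *Gdf11* over *Mstn* fall without overlap, and the other 2 ratios overlap.

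The rest of the pathway was followed in 8 lists with 71 genes, of which 70 were in the table and 48 had a mean of at least 1 TPM. In these, 13 were called lower, 2 higher and 33 neither, beside 23.3% lower and 1.34% higher among all genes tested. The median log2 difference was -0.38 for the lists and -0.32 for all genes, and after median-of-ratios scaling, where -0.0047 was the median of all genes, it was -0.04, with 3 genes lower and 4 higher of 48 (6.03% and 5.25% of all genes on that scale). With the replicate block the lists had 25 lower and 3 higher, and 48.4% of all genes were called lower and 2.69% higher. With the block and median-of-ratios scaling together, 15.8% of all genes were called lower and 13.4% higher. The counts also rested on single libraries, as did those of all genes: 4 lower and 0 higher without LrpprcWT replicate 1, 29 and 4 without LrpprcWT replicate 2, 0 and 0 without LrpprcWT replicate 3, 4 and 0 without LrpprcP27A replicate 2, and 4 and 0 without LrpprcP27A replicate 3, by limma. In the same fits 2.51%, 59.5%, 0.129%, 4.34% and 3.79% of all genes were called lower.

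Among the extracellular antagonists, *Wfikkn2* moved in the opposite direction to *Fst*. It encodes GASP-1, a secreted protein that binds myostatin and GDF11. Its values were 2.43, 4.54 and 2.97 TPM with LrpprcWT and 5.21, 7.14 and 6.66 TPM with LrpprcP27A, without overlap (log2 difference 0.79, SE 0.20, limma adjusted p = 0.0303, and 1.08 with a limma adjusted p = 0.0396 after median-of-ratios scaling). With 1 library left out, the *Wfikkn2* call held in only 2 of 6 fits, and the difference lay between 0.64 and 0.98. Of 8 antagonists tested in the list of 12, 5 were lower and 1 higher, beside 23.3% and 1.34% of all genes tested. *Fstl1*, which encodes a secreted follistatin-like glycoprotein, fell from 80.8 ± 34.5 to 22.6 ± 7.67 TPM (SD, n = 3 each, log2 difference -1.74, limma adjusted p = 0.0202). *Bmper*, *Nbl1* and *Dcn* were also called lower, and these 3 calls were lost after median-of-ratios scaling (limma adjusted p = 0.0603, 0.0934 and 0.229), whereas that of *Fstl1* was kept (0.0396). The fibroblast marker sums given with *Fst* moved with this list too, and their part was not tested.

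Of the other ligands, most were too low to test. The counts that follow are to be read beside the 23.3% of all genes tested that were called lower. The activin and nodal list had 1 of 6 genes above the filter, *Inha*, for the inhibin α subunit that pairs with the β subunits to form inhibins, which antagonise activins. It was at 15.0, 19.6 and 18.7 TPM with LrpprcWT and at 8.54, 8.71 and 6.27 TPM with LrpprcP27A (log2 difference -1.09, limma adjusted p = 0.0116, and -0.75 with a limma adjusted p = 0.0526 after median-of-ratios scaling). *Inha* overlaps *Obsl1*, which encodes a cytoskeletal protein of muscle, on the opposite strand. Without strand, reads from any stretch that both genes transcribe cannot be told apart, and overlap of their exons was not examined. Among the BMP ligands 4 of 9 were tested and *Bmp5* was called lower (8.92 ± 1.84 to 5.23 ± 0.928 TPM, SD, n = 3 each, limma adjusted p = 0.0334), a call lost after median-of-ratios scaling (-0.34, limma adjusted p = 0.140). Of 3 proteases tested among the 6 that process these ligands, *Bmp1*, which frees myostatin from its propeptide, was called lower (11.7 ± 3.34 to 5.16 ± 1.41 TPM, SD, n = 3 each, log2 difference -1.03, limma adjusted p = 0.0247, and 0.0520 after median-of-ratios scaling).

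Among the other receptors of the family 7 of 8 were tested and *Tgfbr2*, the type II receptor of TGF-β itself, was called lower (16.0 ± 4.04 to 7.87 ± 1.82 TPM, SD, n = 3 each, log2 difference -0.93, limma adjusted p = 0.0256), a call lost after median-of-ratios scaling (-0.59, limma adjusted p = 0.0586). *Tgfbr1*, or ALK5, which myostatin also uses as a type I receptor, went from 7.51 to 5.49 TPM and was not called (-0.37, limma adjusted p = 0.143), but was called without LrpprcWT replicate 2 (-0.56, limma adjusted p = 0.00879). *Acvr1c*, or ALK7, was barely detected, at mean values of 0.0150 and 0.0307 TPM. Of 5 coreceptors tested in a list of 9, *Rgma*, a BMP coreceptor, was called lower (19.3 ± 4.42 to 10.9 ± 2.50 TPM, SD, n = 3 each, limma adjusted p = 0.0329), and not after median-of-ratios scaling (-0.42, limma adjusted p = 0.163). For both lists, the share of all genes tested that were called lower was 23.3%.

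The Smads through which myostatin and activins signal were not called on the deposited scale. *Smad3* was at 41.0 ± 5.58 and 41.2 ± 6.64 TPM (SD, n = 3 each, log2 difference 0.0045, limma adjusted p = 0.982), and was called higher with the replicate block and median-of-ratios scaling together (0.37, limma adjusted p = 0.0248). *Smad4*, the common partner, was at 22.0 and 22.4 TPM (0.04, limma adjusted p = 0.837) and was called higher after median-of-ratios scaling (0.39, limma adjusted p = 0.0463). *Smad2* went from 3.98 to 3.11 TPM (-0.27, limma adjusted p = 0.185), with a call only without LrpprcWT replicate 2 (-0.38, limma adjusted p = 0.0353). *Smad7*, the inhibitory Smad, went from 5.43 to 4.84 TPM (-0.13, limma adjusted p = 0.547). Of the 12 genes tested among 13 Smads and their regulators 1 was called, *Smad1* of the BMP branch, which fell from 7.28 ± 2.26 to 3.79 ± 1.06 TPM (SD, n = 3 each, limma adjusted p = 0.0402), a call lost after median-of-ratios scaling (-0.47, limma adjusted p = 0.164). Of all genes tested, 23.3% were called lower. After that scaling 0 of the 12 were lower and 2 higher, *Smad4* and *Zfyve9* (0.71, limma adjusted p = 0.0264), beside 5.25% of all genes called higher. *Zfyve9*, at 24.6 and 31.5 TPM on average, just missed a call on the deposited scale (0.35, limma adjusted p = 0.0512). With the replicate block 3 were called lower and 1, *Zfyve9*, higher (limma adjusted p = 0.0264).

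Of the 8 genes taken as readouts of the 2 branches, 7 had a log2 difference below 0. In this list 2 were called lower and 1 higher, beside 23.3% and 1.34% of all genes tested. *Fbxo32*, which encodes the muscle ubiquitin ligase atrogin-1, was at 73.0, 58.8 and 69.5 TPM with LrpprcWT and at 91.5, 115.0 and 130.4 TPM with LrpprcP27A, without overlap (log2 difference 0.72, SE 0.15, limma adjusted p = 0.0202). Its call held in only 2 of the 6 fits with 1 library left out, where the difference lay between 0.61 and 0.86. *Trim63*, for the ligase MuRF1, was not called (165 ± 26.6 and 159 ± 44.7 TPM, SD, n = 3 each, limma adjusted p = 0.760). *Id2* and *Id3*, which encode inhibitors of bHLH factors and are induced by BMP signals, were called lower, *Id2* from 7.36 to 2.76 TPM (limma adjusted p = 0.0189) and *Id3* from 43.3 to 20.3 TPM (limma adjusted p = 0.0249). After median-of-ratios scaling *Id2* kept its call (limma adjusted p = 0.0427) and *Id3* did not (0.0834). The remaining 4, namely *Id1*, *Fbxo30*, *Foxo1* and *Foxo3*, were not called. With the replicate block *Id1*, *Fbxo30* and *Foxo1* were called lower (limma adjusted p = 0.000691, 0.0119 and 0.0213), and of these *Id1* also with the block and median-of-ratios scaling together (0.0459).

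**Figure D5:**
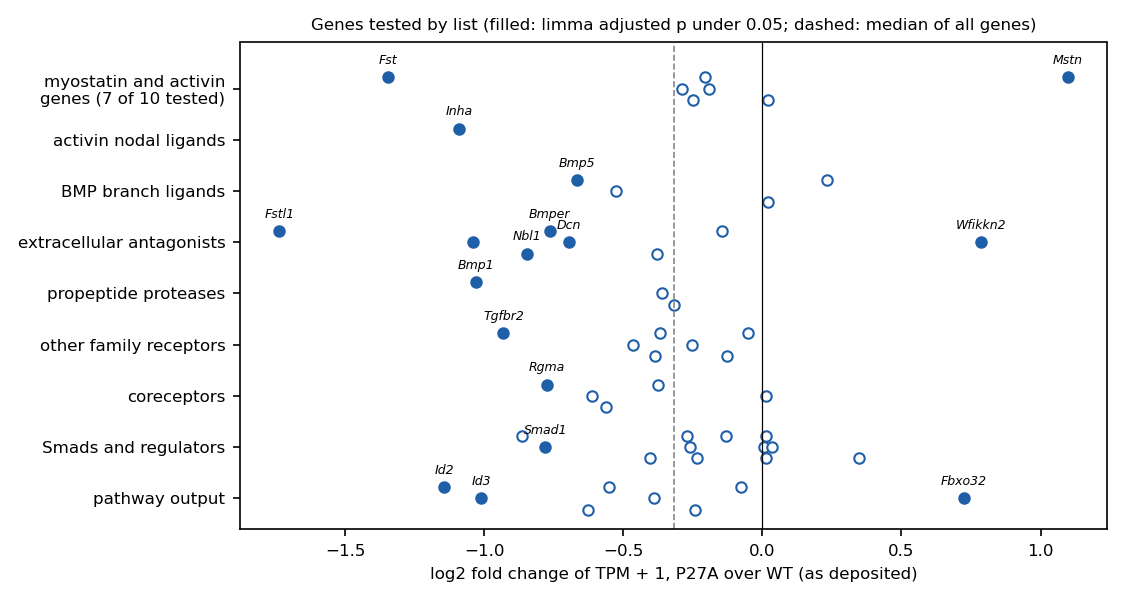
Log2 fold change of TPM + 1, LrpprcP27A (P27A) over LrpprcWT (WT), of each gene tested (points) in the described set and in 8 lists of the pathway (rows). Filled points passed an adjusted p of 0.05 in limma (1 of them carries no name), and the dashed line is the median of all genes tested (-0.32). *Mstn*, *Wfikkn2* and *Fbxo32* are the filled points above 0, and 38 of the 48 points in the 8 lists lie below 0.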

How the data were processed

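RNA was extracted with TRIzol from 6 TA muscles (3 LrpprcWT, 3 LrpprcP27A), and libraries were made with the unstranded TruSeq v2 kit. Per the study's methods, reads were trimmed by quality and length and mapped with CLC Genomics Workbench 20.0.4 against GRCm39, and the authors deposited the resulting TPM of 41709 genes, without counts. Depth is therefore unknown, and no counting error can be given.

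LrpprcP27A was set against LrpprcWT by limma (version 3.58.1, R 4.3.3, empirical Bayes with a trend) on log2(TPM + 1), a scale on which changes of low genes are understated. Tests covered the 11611 genes whose TPM averaged at least 1, with p-values adjusted by Benjamini-Hochberg over all of them and calls at an adjusted p under 0.05. Ratios were compared by exact permutation tests (Python 3.11.15, scipy 1.17.1). The fit was tested on simulated data. The samples of a group are biological replicates according to the study.

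The alternatives were a pseudocount of 0.1, no filter on low values, a filter at an average TPM of 5, 3 other scalings (median-of-ratios, nuclear protein-coding genes, quantile), limma without the trend, a Kruskal-Wallis test, the replicate block and each library left out in turn. The fit with the block and without the filter was added after the data were seen. The block uses the library number, which both groups share. The study places the 2 plasmids in opposite legs but does not say outright that the number is the mouse. Deviations from the group means correlated in each same-number pair (r = 0.363, 0.528 and 0.356 across genes). Between libraries of different number r lay between -0.362 and 0.00402. The deviations of a group sum to 0 for each gene, so positive values in same-number pairs push down those of the other pairs. The range for different numbers therefore adds no separate evidence for the pairing. The pairing was accepted, but the main comparison was unpaired.

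The 10 genes and the lists were chosen with earlier results of these data known. Named are the 10 genes, the 2 genes called lower and the 2 called higher with the largest change in each list, and Tgfbr1, Acvr1c, Smad2, Smad3, Smad4, Smad7, Wfikkn2, Fbxo32 and Trim63. Further genes of short counts (Bmper, Nbl1, Dcn, Id1, Fbxo30, Foxo1, Foxo3, Mylpf and Acta1 among them) are named to complete a count. The values of 1 gene that the rule names are not reported here. Promoters come from GRCm39 and the GENCODE annotation, matched by symbol. Of 41709 symbols 37033 matched.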

Additional observations from a re-analysis of the deposited data

How the results depend on the processing

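With 3 against 3 libraries the Kruskal-Wallis p cannot go below 0.0495, so that after adjustment 0 of 11611 genes passed and its counts of 0 say nothing about stability. In the other alternatives Mstn kept its direction in all 16 and its call in 11, and Fst kept its direction in all 15 in which it was fitted and its call in 13. The count of the 10 genes called lower, 1 in the main comparison, was 0 without the filter on low values (4 at an unadjusted p under 0.05 in limma), 0 with a mean TPM of at least 5 (which leaves Fst out, 0 unadjusted), 0 by the Kruskal-Wallis test (2 unadjusted) and 2 without the filter and with the replicate block. The count called higher, 1 in the main comparison, was 0 without the filter and 0 by Kruskal-Wallis (1 unadjusted in each). Leaving out 1 library gave between 0 and 1 in both directions.

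For the 48 pathway genes tested, 13 lower became 0 without the filter (25 unadjusted, limma), 3 with median-of-ratios scaling, 4 rescaled over nuclear protein-coding genes, 1 with quantile normalization, 0 by Kruskal-Wallis (17 unadjusted), 25 with the replicate block and 20 with the block and no filter, and 0 to 29 with 1 library left out. The 2 higher became 0 without the filter (4 unadjusted), 4 with median-of-ratios scaling, 0 by Kruskal-Wallis (3 unadjusted), 6 with the block and that scaling, and 0 to 4 with 1 library left out. The replicate block changed no call of the 10 genes with the filter in place. The log2 ratio of Inhbb over Inhba, -0.17, was between -0.39 and 0.066 with 1 library left out, and turned to 0.066 without LrpprcWT replicate 3 and to 0.0023 without LrpprcP27A replicate 1. Apart from the filters, which change the genes tested, the causes were not tested. TPM keeps no depth, so the precision of Gdf5, Inhba and Inhbb, all under 1 TPM on average, cannot be stated.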

Other observations

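Genes known to regulate Mstn or to bind its product were also examined, in a list chosen after the values of the 10 genes were seen but before its own. The list held the transcription factor genes Mef2a, Mef2c, Mef2d, Myod1 and Nr3c1 (the glucocorticoid receptor), Tcap, for a Z-disc protein that binds myostatin, and Ltbp3, for a protein that holds promyostatin in the matrix. Of the 7, all tested, 1 was called lower and 0 higher by limma, beside 23.3% and 1.34% of all genes tested. Ltbp3 fell from 20.4 ± 2.56 to 14.3 ± 0.499 TPM (SD, n = 3 each, log2 difference -0.47, limma adjusted p = 0.0342), and its difference was -0.12 after median-of-ratios scaling (limma adjusted p = 0.311). Myod1, which encodes a factor that binds E-boxes, was at 25.6, 35.5 and 47.6 TPM with LrpprcWT and at 21.1, 18.8 and 26.3 TPM with LrpprcP27A, so that the groups overlapped (log2 difference -0.66, limma adjusted p = 0.0540). Tcap was at 3790 and 4091 TPM on average (0.11, limma adjusted p = 0.598). With the replicate block, which calls 48.4% of all genes lower, 5 of the 7 were, among them Myod1 (limma adjusted p = 0.000749). With the block and median-of-ratios scaling together 0 were lower (Myod1 limma adjusted p = 0.214), and Tcap, higher in 3 of 3 pairs, was called higher (0.49, limma adjusted p = 0.0203).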
